A study of Homo sapiens with 15 samples.

Results

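A set of 10 genes that mark epithelial or mesenchymal identity was followed across NCI-H1975 cells in which the epidermal growth factor receptor (EGFR) was inhibited, stimulated or knocked down. The genes were chosen by name with earlier results of these data known, so counts of those called are descriptions. All 10 were found among the 61248 loci of the expression table. The 6 epithelial genes were CDH1, EPCAM, LLGL2, ESRP1, ESRP2 and GRHL2, and the 4 mesenchymal genes were CDH2, VIM, ZEB1 and SNAI2. NCI-H1975 is a cell line from a human non-small cell lung tumour with a mutated EGFR. Polyadenylated RNA was sequenced from 15 libraries in 5 groups of 3. The control group carries no other label. The almonertinib group received almonertinib, a drug that blocks the EGFR kinase, and the EGF group received the ligand of the receptor. The siEGFR group received a small interfering RNA against EGFR, and the siNC group its negative-control siRNA. The labels give no dose, time, medium or siRNA sequence for any group. They do not say whether the libraries of a group came from separate cultures, so a p-value here reflects no more than how far libraries of a group lay apart, a spread that may be technical.

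Epithelial cells hold to each other through E-cadherin junctions and keep an apical and a basal side. In an epithelial-to-mesenchymal transition, transcription factors such as ZEB1 and SNAI2 (Slug) repress E-cadherin and other epithelial genes, and cells gain vimentin filaments and often N-cadherin. GRHL2 and the splicing factors ESRP1 and ESRP2 maintain the epithelial state, and GRHL2 and ZEB1 are known to repress each other. In lung cancer with mutated EGFR, mesenchymal features are among the described states of cells that tolerate EGFR inhibitors.

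Levels are FPKM, fragments per kilobase of gene scaled to library depth, given for replicates 1, 2 and 3 or as mean ± SD (n = 3). Changes are log2 fold changes of FPKM + 1 with their SE from limma, which understate the change of genes below a few FPKM. A gene was called when its Benjamini-Hochberg adjusted p over 14999 tested genes was under 0.05, and rose, fell and changed are used only of such genes. Of the 10 identity genes, 8 passed the filter of at least 1 FPKM in at least 3 libraries. GRHL2 and CDH2 had no library at 1 FPKM, and ESRP1 passed only through its 6 siRNA libraries. Library depth ran from 18009903 to 34908302 reads, and a single read over 1 kb was worth 0.0286 to 0.0555 FPKM. EGFR (ENSG00000146648) was at 49.4, 49.4 and 49.8 FPKM in siNC and at 29.9, 28.6 and 28.9 FPKM in siEGFR. The knockdown groups did not overlap, and 58.8% of the siNC level was left. Control libraries held 28.0, 22.3 and 22.8 FPKM of EGFR. Mean EGFR was thus 203% of control in siNC and still 119.5% of control in siEGFR, both without overlap. With almonertinib it was 68.5% of control. The lung lineage factor NKX2-1 was at 4.53 FPKM in control and 14.98 FPKM in siNC. Genes of the surfactant-producing cell were low and differed in direction: from control to siNC SFTPB went from 1.10 to 3.40 FPKM and LAMP3 from 0.129 to 2.51 FPKM, while SFTPC went from 1.15 to 0.0660 FPKM. The airway gene SCGB1A1 reached no more than 0.0257 FPKM in any group mean.

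Transcripts of epithelial and mesenchymal genes were both present in the RNA of each group. VIM was the most abundant of the 10 transcripts in each group, with group means from 148 to 203 FPKM, yet CDH1 and EPCAM were above 1 FPKM in all 15 libraries. CDH2 was close to absent. Over the 5 groups the epithelial genes also spanned a wider range than VIM, ZEB1 and SNAI2. The highest group mean was 10.2 times the lowest for LLGL2, 7.66 times for CDH1, 7.08 times for EPCAM, 6.28 times for ESRP1, 4.68 times for GRHL2 and 4.04 times for ESRP2. The same ratio was 2.74 for SNAI2, 1.44 for ZEB1 and 1.37 for VIM, and 4.504 for CDH2, which had only 3 to 23 reads per library. These are bulk values, in which fewer cells of a type and less RNA per cell cannot be told apart.

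**Figure D1:**
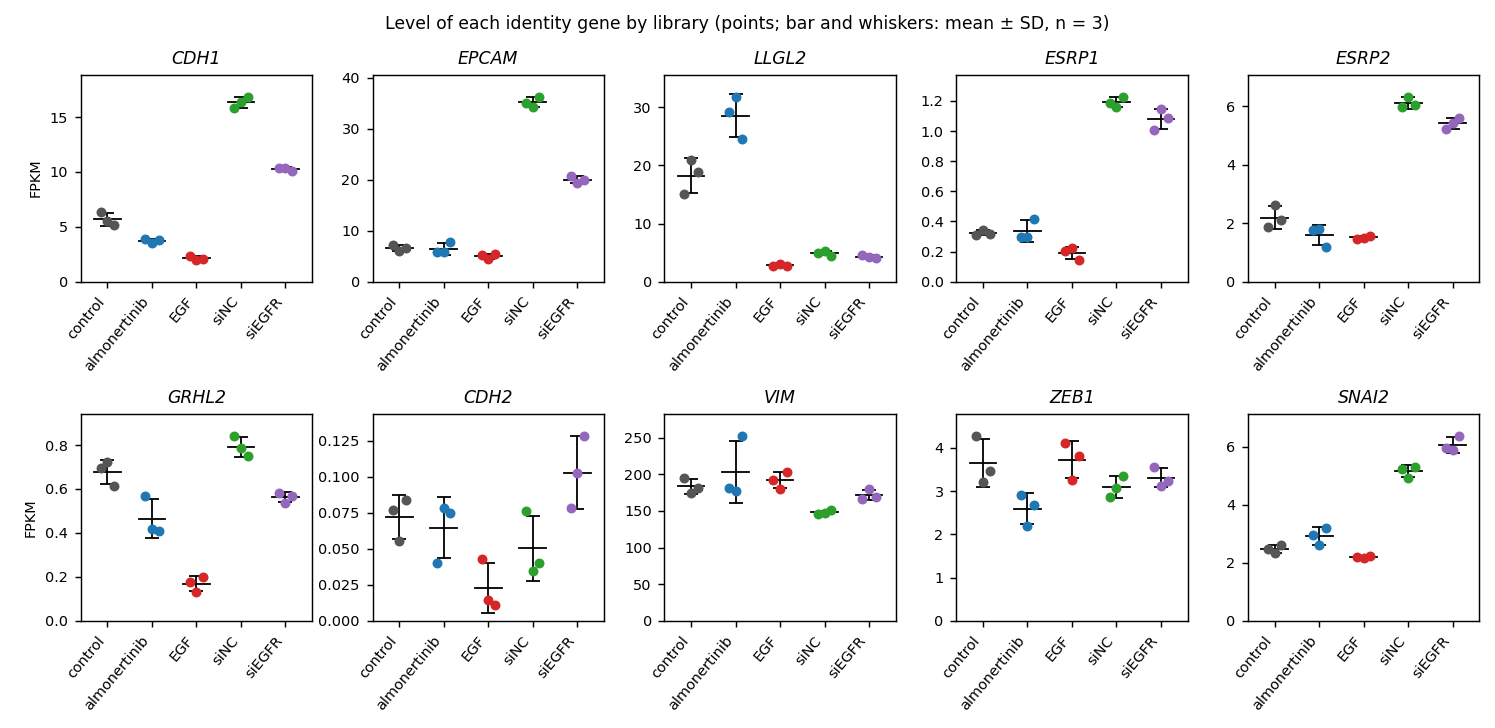
FPKM of each of the 10 identity genes (one panel each, vertical axis from 0) in the 15 libraries by group, with points for libraries and bar and whiskers for mean ± SD (n = 3). CDH1, EPCAM, ESRP1 and ESRP2 are highest in siNC and siEGFR, LLGL2 is highest with almonertinib, and VIM and ZEB1 vary little.

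CDH1 (ENSG00000039068) encodes E-cadherin, the calcium-dependent adhesion molecule of epithelial junctions. It was at 6.36, 5.56 and 5.14 FPKM in control, 3.86, 3.51 and 3.76 with almonertinib and 2.32, 1.98 and 2.10 with EGF. In siNC it was at 15.8, 16.3 and 16.9 FPKM and in siEGFR at 10.4, 10.3 and 10.05. No group overlapped its neighbour, in the order siNC, siEGFR, control, almonertinib, EGF from high to low. The transcript was thus lower in each perturbed group than in its own control. Almonertinib left 65.2% of it (-0.50 ± 0.07, adjusted p = 0.000196), EGF 37.5% (-1.09 ± 0.07, adjusted p = 3.81e-08) and siEGFR 62.7% of siNC (-0.62 ± 0.07, adjusted p = 0.000109). It fell with inhibitor and ligand alike in direction, and a direct comparison placed almonertinib above EGF by 0.59 ± 0.07 (adjusted p = 5.61e-06). The fall with EGF was larger than the fall with siEGFR by 0.47 on the log2 scale (difference -0.47 ± 0.10, adjusted p = 0.00176). The almonertinib and siEGFR effects differed by 0.12 ± 0.10 and this did not pass (adjusted p = 0.407).

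EPCAM (ENSG00000119888) encodes an epithelial surface glycoprotein used to identify carcinoma cells. Control libraries held 7.12, 5.93 and 6.69 FPKM, almonertinib libraries 5.76, 5.73 and 7.76, and EGF libraries 5.14, 4.45 and 5.32. The siNC libraries held 35.1, 34.2 and 36.3 FPKM and the siEGFR libraries 20.8, 19.4 and 19.8. Control and almonertinib overlapped, EGF lay below both, and the siRNA groups lay far above and apart from each other. EPCAM fell with EGF (-0.34 ± 0.10, adjusted p = 0.0103) and with siEGFR (-0.78 ± 0.10, adjusted p = 0.000374), to 75.6% and 56.9% of their controls. With almonertinib the change was -0.04 ± 0.10 (adjusted p = 0.778), and it turned to 0.04 under median-ratio scaling. The almonertinib effect lay above the siEGFR effect by 0.74 ± 0.14 (adjusted p = 0.00367). For the EGF effect the excess over siEGFR was 0.44 ± 0.14 (adjusted p = 0.0227), a call that 6 of 21 alternatives lost, with adjusted p up to 0.0599. Among these were fits without control 2 (adjusted p = 0.052), EGF 3 (adjusted p = 0.0586), siNC 3 (adjusted p = 0.0527) or siEGFR 2 (adjusted p = 0.0519).

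LLGL2 (ENSG00000073350) is a human homologue of the fly polarity gene lethal giant larvae and helps to set up the basolateral domain. It behaved differently from CDH1 and EPCAM. Its level was 15.04, 20.9 and 18.8 FPKM in control, 29.2, 31.8 and 24.5 with almonertinib and 2.67, 3.07 and 2.63 with EGF. It was at 4.98, 5.26 and 4.496 FPKM in siNC and at 4.55, 4.27 and 4.07 in siEGFR. The almonertinib libraries were all above the control libraries and the EGF libraries all below them, while the siRNA groups were low and overlapped. LLGL2 rose with almonertinib to 1.56 times control (0.62 ± 0.11, adjusted p = 0.00159) and fell with EGF to 15.3% of control (-2.33 ± 0.11, adjusted p = 4.52e-09). The rise missed the threshold when only control and almonertinib were fitted (adjusted p = 0.0588). Between almonertinib and EGF the difference was 2.96 ± 0.11, or 10.2 times (adjusted p = 2.02e-10). With siEGFR the change was -0.16 ± 0.11 (adjusted p = 0.565). Against the siEGFR effect, the almonertinib effect was higher by 0.78 ± 0.16 (adjusted p = 0.00663) and the EGF effect differed by -2.18 ± 0.16 (adjusted p = 4.35e-07).

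ESRP1 (ENSG00000104413) and ESRP2 (ENSG00000103067) encode RNA-binding proteins that direct epithelial exon choice in genes such as FGFR2 and CD44. ESRP2 was the more abundant, at 4.98 to 8.30 times ESRP1 in the group means of the ratio within a library. It was at 1.87, 2.61 and 2.10 FPKM in control, 1.76, 1.81 and 1.20 with almonertinib and 1.47, 1.51 and 1.56 with EGF. In siNC it was at 5.96, 6.33 and 6.05 FPKM and in siEGFR at 5.24, 5.43 and 5.6. Control lay above both almonertinib and EGF, which overlapped. ESRP2 fell with EGF (-0.34 ± 0.10, adjusted p = 0.0103) and with almonertinib (-0.31 ± 0.10, adjusted p = 0.0303). The call with almonertinib was lost in 7 of 15 alternatives. Adjusted p ran from 0.014 to 0.212 over all 15 and from 0.0513 to 0.212 over the 7, among them fits without control 2 (adjusted p = 0.088), control 3 (adjusted p = 0.0513) or almonertinib 3 (adjusted p = 0.0793). The call with EGF was lost under median-ratio scaling (-0.27, adjusted p = 0.0691). ESRP2 did not pass with siEGFR (-0.15 ± 0.10, adjusted p = 0.505).

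ESRP1 was scarce outside the siRNA groups, with 22 to 41 reads per library there. Control libraries held 0.311, 0.345 and 0.319 FPKM, almonertinib libraries 0.295, 0.296 and 0.417, and EGF libraries 0.200, 0.225 and 0.144. The siNC libraries held 1.19, 1.16 and 1.23 FPKM and the siEGFR libraries 1.01, 1.14 and 1.09. EGF libraries were all below control libraries, at 58.4% of their mean. The change on the scale used did not pass (-0.16 ± 0.06, adjusted p = 0.0617). It passed in limma-voom on recovered reads, which adds no FPKM to the values (-0.77, adjusted p = 0.00674), and with a pseudocount of 0.1 (-0.56, adjusted p = 0.0218).

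GRHL2 (ENSG00000083307) encodes a grainyhead transcription factor that activates CDH1 and other junction genes. It stayed below 1 FPKM in every library, with 19 to 158 reads each, and was outside the main test. Its values were 0.697, 0.721 and 0.615 FPKM in control, 0.566, 0.417 and 0.410 with almonertinib and 0.175, 0.133 and 0.200 with EGF. They were 0.841, 0.786 and 0.748 FPKM in siNC and 0.583, 0.537 and 0.569 in siEGFR. The EGF libraries were the lowest of all and did not overlap another group. EGF left 25.0% of the control level, almonertinib 68.5% and siEGFR 71.2% of siNC. In a fit of all 40824 genes above 0, the change was -0.52 ± 0.05 with EGF (adjusted p = 2.37e-05), -0.20 ± 0.05 with almonertinib (adjusted p = 0.0454) and -0.20 ± 0.05 with siEGFR (adjusted p = 0.113).

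CDH2 (ENSG00000170558) encodes N-cadherin, the cadherin that mesenchymal and neural cells carry in place of E-cadherin. It was counted with 14, 9 and 13 reads in control, 7, 15 and 13 with almonertinib, 9, 3 and 3 with EGF, 13, 6 and 12 in siNC and 16, 20 and 23 in siEGFR. Its highest level, in 1 siEGFR library, was 0.128 FPKM. The siEGFR libraries were above the siNC libraries, the EGF libraries were below the control libraries, and control, almonertinib and siNC overlapped. In the fit without the filter no comparison against a control passed for CDH2, with adjusted p from 0.0742 to 0.936, and at these counts only large differences were detectable. The siEGFR and EGF effects on CDH2 had opposite signs, 0.07 ± 0.02 and -0.07 ± 0.02, and in that fit their difference was -0.14 ± 0.03 (adjusted p = 0.0174).

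VIM (ENSG00000026025) encodes vimentin, the intermediate filament protein of mesenchymal cells. It was at 195, 174 and 182 FPKM in control, 181, 177 and 252 with almonertinib, 193, 180.5 and 203 with EGF, 146, 147 and 151 in siNC and 167, 179.5 and 169.5 in siEGFR. Control, almonertinib and EGF overlapped, and almonertinib 3 stood above all other libraries. No change of VIM was called with almonertinib (0.13 ± 0.11, adjusted p = 0.382), EGF (0.07 ± 0.11, adjusted p = 0.646) or siEGFR (0.22 ± 0.11, adjusted p = 0.346). Without almonertinib 3 the value for almonertinib was -0.04. The siEGFR libraries were all above the siNC libraries, and the difference passed when only these 6 libraries were fitted (adjusted p = 0.00658).

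ZEB1 (ENSG00000148516) encodes a zinc finger repressor of CDH1, and SNAI2 (ENSG00000019549) encodes the repressor Slug. ZEB1 was at 4.27, 3.21 and 3.46 FPKM in control, 2.91, 2.20 and 2.67 with almonertinib, 4.10, 3.26 and 3.81 with EGF, 2.85, 3.06 and 3.36 in siNC and 3.55, 3.12 and 3.24 in siEGFR. The almonertinib libraries lay below the control and the EGF libraries, and the remaining neighbours in the order of means overlapped. ZEB1 fell with almonertinib (-0.37 ± 0.10, adjusted p = 0.0163), to 71.0% of control. That call was lost in 4 of 15 alternatives, among them fits without control 1 (-0.28, adjusted p = 0.0692), without almonertinib 2 (-0.29, adjusted p = 0.0752) and of only these groups (adjusted p = 0.127). ZEB1 was also lower with almonertinib than with EGF (-0.40 ± 0.10, adjusted p = 0.00419). With EGF and siEGFR its changes of 0.03 ± 0.10 and 0.07 ± 0.10 did not pass (adjusted p = 0.854 and 0.826).

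SNAI2 was at 2.47, 2.32 and 2.61 FPKM in control, 2.95, 2.61 and 3.21 with almonertinib and 2.21, 2.18 and 2.23 with EGF. In siNC it was at 5.22, 4.91 and 5.31 FPKM and in siEGFR at 5.94, 5.87 and 6.36. Each group was apart from its neighbours, with siEGFR the highest and EGF the lowest. The shifts against the controls were small and did not pass: 0.18 ± 0.06 with almonertinib (adjusted p = 0.0505), -0.11 ± 0.06 with EGF (adjusted p = 0.16) and 0.20 ± 0.06 with siEGFR (adjusted p = 0.096). The value with almonertinib passed in 6 of 15 alternatives, over which its adjusted p ran from 0.00673 to 0.283. The value with siEGFR passed in 2 of 14 alternatives, over which its adjusted p ran from 0.0204 to 0.325. Directly compared, SNAI2 was higher with almonertinib than with EGF (0.29 ± 0.06, adjusted p = 0.00137). Its EGF effect lay below its siEGFR effect by 0.31 on the log2 scale (-0.31 ± 0.09, adjusted p = 0.0142).

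**Figure D2:**
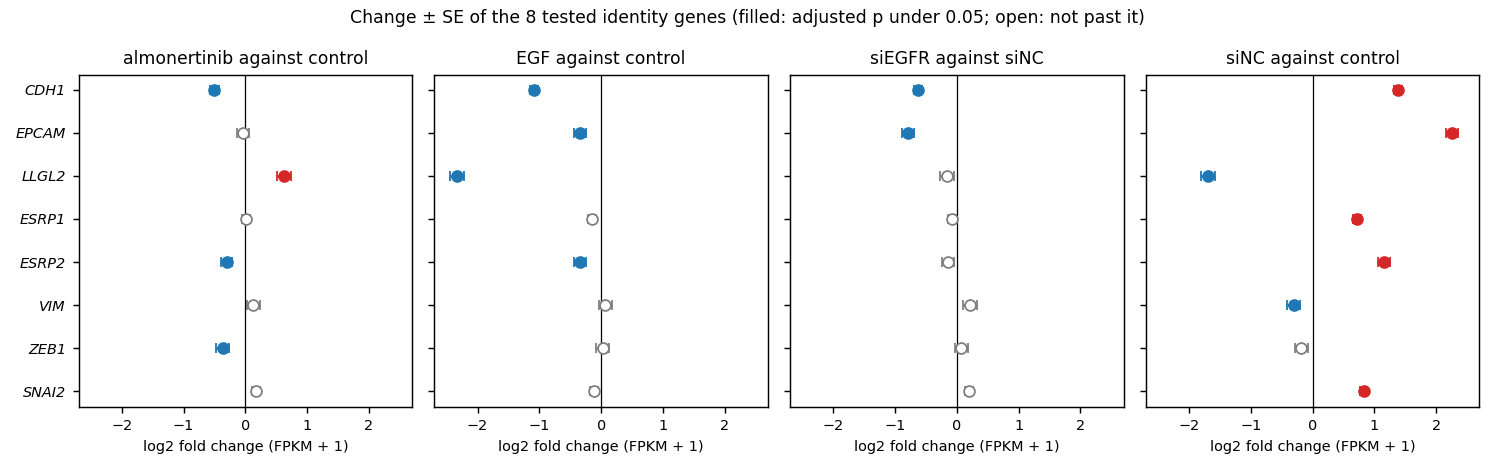
Log2 fold change of FPKM + 1 ± SE of the 8 tested identity genes in 4 comparisons, filled where the adjusted p is under 0.05 and open where it is not. CDH1 lies left of 0 in the 3 comparisons of a perturbation with its control, and LLGL2 lies on opposite sides with almonertinib (0.62) and EGF (-2.33).

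By comparison, 4 of the 8 tested identity genes changed with almonertinib (LLGL2 higher, and CDH1, ESRP2 and ZEB1 lower), where 30.1% of all tested genes were called. With EGF 4 fell (CDH1, EPCAM, LLGL2 and ESRP2), where 49.3% of all tested genes were called and 27.3% were called lower. With siEGFR 2 fell (CDH1 and EPCAM), where 5.46% were called and 3.19% were called lower. Of the 3 tested mesenchymal genes limma called 0 with EGF, with 0 also at an unadjusted p under 0.05. It called 0 with siEGFR, with 1 (SNAI2, higher) at an unadjusted p under 0.05. Limma-voom called 0 in both. The median change over the 8 genes was -0.01 with almonertinib, -0.25 with EGF and -0.11 with siEGFR, beside -0.06, -0.04 and 0.01 over all tested genes. The almonertinib and EGF comparisons share the 3 control libraries. Counting also the untested GRHL2 and CDH2, the libraries did not overlap for 6 of 10 with almonertinib, 8 with EGF and 8 with siEGFR, beside 35.2%, 51.1% and 40.5% of all tested genes. Where effects were compared, 2 of 8 differed between almonertinib and siEGFR and 4 between EGF and siEGFR, beside 13.7% and 38.3% of all tested genes. Between almonertinib and EGF themselves 6 of 8 differed, where 62.6% of all tested genes did. CDH1, EPCAM, LLGL2, ESRP1 and SNAI2 were higher with almonertinib and ZEB1 was lower. The calls of EPCAM (0.30 ± 0.10, adjusted p = 0.0155) and ESRP1 (0.17 ± 0.06, adjusted p = 0.0382) were lost in 4 and 6 of 15 alternatives. Both were lost without almonertinib 3 (adjusted p = 0.0553 for EPCAM and 0.125 for ESRP1), EPCAM also without EGF 2 (adjusted p = 0.0648) and ESRP1 also without EGF 1 (adjusted p = 0.0667) or EGF 3 (adjusted p = 0.131).

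The control groups also differed from each other. ESRP1 entered the tested genes only through siRNA libraries, so its difference here was set by the filter and it is left out of the count. Between siNC and control 6 of the 7 other tested identity genes changed, where 66.0% of all tested genes were called. The libraries did not overlap for these 6 and for the untested GRHL2, but did for ZEB1 and CDH2. Of all tested genes 68.8% did not overlap. EPCAM was at 5.35 times its control level in siNC (2.26 ± 0.10, adjusted p = 5e-10), CDH1 at 2.87 times (1.38 ± 0.07, adjusted p = 1.35e-09), ESRP2 at 2.79 times (1.16 ± 0.10) and SNAI2 at 2.09 times (0.83 ± 0.06). LLGL2 was at 26.9% (-1.69 ± 0.11, adjusted p = 2.96e-08) and VIM at 80.7% (-0.31 ± 0.11, adjusted p = 0.024). The VIM call was lost without control 1 (adjusted p = 0.0721), siNC 1 (adjusted p = 0.0594) or siNC 2 (adjusted p = 0.0576) and without the filter (adjusted p = 0.0558). ZEB1 did not pass (-0.18 ± 0.10, adjusted p = 0.137), but it did in 1 of 15 alternatives, limma-voom (-0.27, adjusted p = 0.0344). The level of ESRP1 was 3.67 times that of control, given as a description. The epithelial genes moved in both directions here, since LLGL2 fell while EPCAM, CDH1 and ESRP2 rose, and the mesenchymal regulator SNAI2 rose too. The labels do not say how these groups differed beyond the siRNA, so transfection, time and culture cannot be told apart.

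Markers of other cell types moved with this contrast. The summed level of 8 leukocyte markers was 32.6 to 43.0 FPKM in control libraries and 9.30 to 10.2 in siNC libraries. Nearly all of it was CD14, at 35.4 and 6.99 FPKM, while the defining markers PTPRC and CD3E were at most 0.0543 FPKM in any group. The summed level of 8 fibroblast markers was 337 to 353 FPKM in control and 138 to 146 FPKM in siNC, carried by COL1A2, with DCN at most 0.00130 FPKM in any group. From control to siNC PDGFRB fell as COL1A2 did, from 8.97 to 1.42 FPKM (-2.04 ± 0.10). COL1A1 went the other way, from 6.80 to 8.61 FPKM (0.31 ± 0.08, adjusted p = 0.00405). With EGF the fibroblast sum was 193 to 214 FPKM, with almonertinib 359 to 383, and in siEGFR 194 to 196. The sum of 7 endothelial markers was under 2 FPKM in every library. The sum of 11 lung epithelial markers was 9.87 to 10.9 FPKM in control, 11.3 to 11.6 with almonertinib and 7.24 to 7.63 with EGF. It was 27.2 to 28.7 FPKM in siNC and 17.7 to 18.2 in siEGFR. Unlike CDH1, this sum was higher with almonertinib than in control, but its members were split. Of 8 tested, NKX2-1 and SFTPC rose and SFTPB fell, from 1.10 to 0.207 FPKM (-0.79 ± 0.09, adjusted p = 3.97e-05). SFTPB was below 1 FPKM with almonertinib and passed the filter through other groups, so its fall was favoured by the filter. The largest part of the sum was NKX2-1, at 4.53 FPKM in control and 14.98 in siNC, while SFTPC went from 1.15 to 0.0660 FPKM. The part of these markers in the results was not tested.

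The ratio of a mesenchymal to an epithelial transcript within a library gives a level that needs no scaling between libraries. VIM was at 30.7, 31.3 and 35.3 times CDH1 in control, 46.8, 50.5 and 67.1 times with almonertinib, 82.9, 91.4 and 96.6 times with EGF, 9.25, 8.98 and 8.95 times in siNC and 16.1, 17.4 and 16.9 times in siEGFR. All 5 groups were apart, and in each perturbation the ratio was above that of its control. VIM over EPCAM had means of 27.9 ± 1.22 in control, 31.6 ± 0.822 with almonertinib, 38.7 ± 1.61 with EGF, 4.21 ± 0.0688 in siNC and 8.61 ± 0.609 in siEGFR. For this ratio too the groups did not overlap. VIM itself was not called in the comparisons of a perturbation with its control, and neither was EPCAM with almonertinib. LLGL2 over CDH1 ran the other way between drug and ligand, with means of 7.72 ± 1.28 for almonertinib, 3.26 ± 0.774 for control and 1.32 ± 0.210 for EGF. VIM was set over CDH1 and EPCAM only, and not over LLGL2, which rose with almonertinib. The ratios are given as a description and were not tested.

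**Figure D3:**
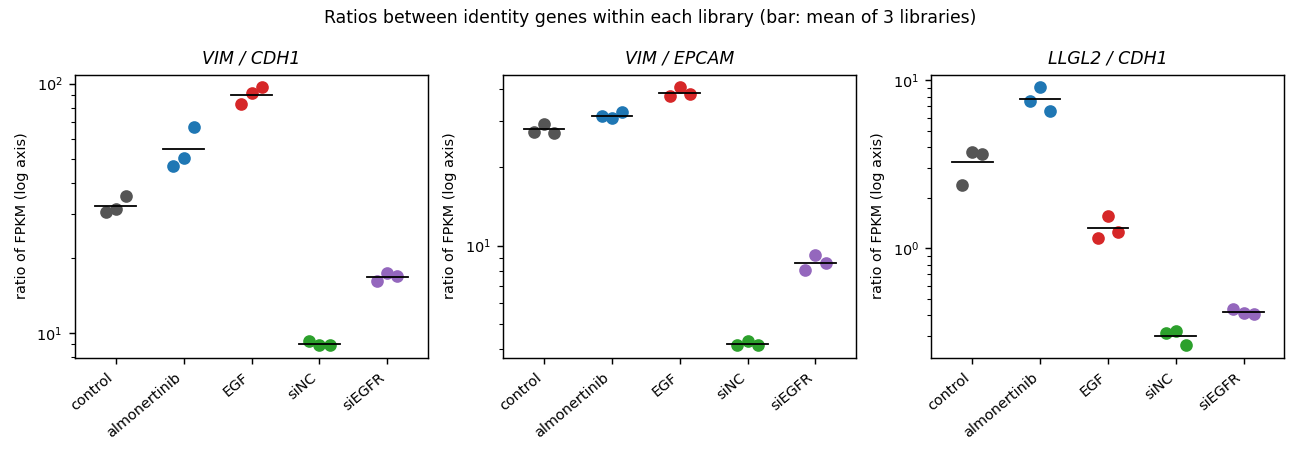
Ratio of FPKM within each library on a log axis for VIM over CDH1, VIM over EPCAM and LLGL2 over CDH1, with points for libraries and a bar for the mean of 3. VIM over CDH1 runs from 9.06 in siNC to 90.3 in EGF, and LLGL2 over CDH1 from 0.301 in siNC to 7.72 with almonertinib.

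Other genes of the same structures were counted in 10 lists. Among junction and polarity genes more members fell than rose with EGF. Of 14 tested tight junction genes 7 fell and 0 rose in limma, beside 27.3% and 22.0% of all tested genes, and the median change was -0.19. At an unadjusted p under 0.05 the count that rose was 0 as well, and limma-voom gave 6 lower and 0 higher. TJP3, a scaffold of tight junctions, fell from 11.2 ± 1.16 to 1.56 ± 0.114 FPKM (-2.25 ± 0.10, adjusted p = 1.41e-09), and cingulin (CGN) fell from 3.02 ± 0.176 to 0.685 ± 0.0403 FPKM (-1.25 ± 0.07). Of 5 tested cadherins other than CDH1 and CDH2, 4 fell, among them P-cadherin (CDH3), from 50.7 ± 6.79 to 23.7 ± 1.35 FPKM (-1.06 ± 0.09, adjusted p = 9.35e-07). Of 16 apicobasal polarity genes 6 fell and 2 rose. LLGL1, the paralogue of LLGL2, was among those that fell (-0.72 ± 0.11, adjusted p = 0.000139), as were the apical determinant CRB3 (-0.74) and PARD6A (-0.88). The cadherins CDH5 and CDH18 also fell, and were at 0.377 and 0.388 FPKM with EGF, where CGN was at 0.685 and CRB3 at 0.629. These genes passed the filter only through groups other than EGF, so their falls were favoured by it, and they are in the counts. Catenins and desmosomal genes were split, with 4 higher and 4 lower of 12. The junction protein plakoglobin (JUP) fell by 0.84 and the adhesion molecule NECTIN1 rose by 0.89.

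Epithelial surface and cytoskeletal genes gave 8 lower and 0 higher of 17 with EGF in limma and in limma-voom, and 9 and 0 at an unadjusted p under 0.05, where 27.3% of all tested genes were called lower and 22.0% higher. The protease inhibitor SPINT1 fell from 6.99 ± 0.487 to 3.13 ± 0.223 FPKM (-0.95 ± 0.07, adjusted p = 1.88e-07), and the surface glycoprotein CD24 fell from 37.4 ± 6.12 to 14.5 ± 1.51 FPKM (-1.30 ± 0.12). Of the 4 tested epithelial transcription factors 2 fell, ELF3 among them (-1.20 ± 0.06), and FOXA2 rose (0.48 ± 0.08). Of 7 tested EMT transcription factors other than ZEB1 and SNAI2, 3 rose and 3 fell. SNAI1, which encodes Snail, rose from 12.5 ± 1.41 to 19.3 ± 0.568 FPKM (0.59 ± 0.07, adjusted p = 1.77e-05) and HMGA2 rose from 0.405 ± 0.0323 to 1.46 ± 0.143 FPKM (0.81 ± 0.07). HMGA2 was below 1 FPKM in control and passed the filter only through other groups, so its rise was favoured by the filter. SOX4 fell by 0.93. Among 19 mesenchymal genes 8 rose and 5 fell, and a fall of 5 in 19 is close to the 27.3% called lower over all tested genes. NT5E, the ectonucleotidase CD73, rose from 13.2 ± 1.42 to 41.9 ± 4.16 FPKM (1.60 ± 0.09), and the fibronectin receptor subunit ITGA5 rose from 34.1 ± 1.44 to 72.8 ± 4.11 FPKM (1.07 ± 0.05). The receptor tyrosine kinase AXL fell from 12.6 ± 0.808 to 4.91 ± 0.164 FPKM (-1.20 ± 0.05, adjusted p = 1.6e-09).

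With almonertinib the mesenchymal list fell more often than it rose, with 12 lower and 2 higher of 19 and a median of -0.36. Of all tested genes 18.0% were called lower and 12.1% higher. Limma-voom gave 9 lower and 2 higher of the 19. NT5E fell from 13.2 ± 1.42 to 6.78 ± 0.741 FPKM (-0.86 ± 0.09, adjusted p = 2.72e-05) and the membrane linker moesin (MSN) fell from 163 ± 4.43 to 118 ± 10.1 FPKM (-0.47 ± 0.06). Of 16 genes of the TGF-beta pathway 7 fell and 0 rose in limma, with 2 higher at an unadjusted p under 0.05, while limma-voom gave 5 lower and 3 higher. Those that fell included the receptors TGFBR1 (-0.79 ± 0.13) and TGFBR2 (-0.41 ± 0.07) and the effector SMAD3 (-0.39 ± 0.05). Catenins and desmosomal genes gave 7 lower and 1 higher of 12 in limma, and 5 lower and 2 higher in limma-voom. Beta-catenin (CTNNB1, -0.39 ± 0.06) and desmoglein 2 (DSG2, -0.50 ± 0.10) were among those that fell in limma. Of 14 tight junction genes 6 fell and 3 rose. TJP1, which encodes ZO-1, fell from 10.6 ± 1.75 to 6.50 ± 0.739 FPKM (-0.63 ± 0.11), and TJP3 rose from 11.2 ± 1.16 to 18.2 ± 2.80 FPKM (0.65 ± 0.10), as LLGL2 did. The polarity genes CRB3 (0.36 ± 0.10) and PARD6A (0.37 ± 0.12) rose too. Of 12 splicing factors linked to the transition, 6 fell and 0 rose in limma, with 0 higher also at an unadjusted p under 0.05, and limma-voom gave 3 lower and 0 higher. Under TPM scaling the median of all tested genes shifted from -0.06 to -0.12 and the share of higher calls went from 40.2% to 23.6%. Under median-ratio scaling that share was 50.4%.

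With siEGFR few list members were called. The epithelial surface list gave 4 lower and 1 higher of 17, beside 3.19% and 2.27% of all tested genes, with the plakin EPPK1 (-0.51 ± 0.07) and the protease inhibitor SPINT2 (-0.40 ± 0.07) among those that fell. Of 14 tight junction genes 0 were called in limma, where 6 were lower and 1 higher at an unadjusted p under 0.05, and limma-voom called 2 lower. Mesenchymal genes gave 3 higher and 4 lower of 19. AXL rose from 17.2 ± 0.157 to 29.1 ± 0.499 FPKM (0.73 ± 0.05, adjusted p = 3.12e-06) and the secreted glycoprotein FSTL1 rose from 16.3 ± 0.283 to 25.7 ± 0.550 FPKM (0.63 ± 0.09). ITGA5 (-0.31 ± 0.05) and NT5E (-0.52 ± 0.09) fell. The splicing regulator RBM47 fell from 8.49 ± 0.0296 to 6.03 ± 0.0604 FPKM (-0.43 ± 0.06, adjusted p = 0.000515). In the 3 fibroblast markers that were tested, COL1A1, COL1A2 and PDGFRB, the calls were all higher. The lung epithelial markers gave 6 lower and 0 higher of 8 tested, in limma, in limma-voom and at an unadjusted p under 0.05. NKX2-1 fell from 14.98 to 11.8 FPKM (-0.31 ± 0.06) and SFTPB from 3.40 to 0.726 FPKM (-1.35 ± 0.09). LAMP3, at 2.51 FPKM in siNC and 0.310 in siEGFR, passed the filter only through siNC, so its fall was favoured by the filter.

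**Figure D4:**
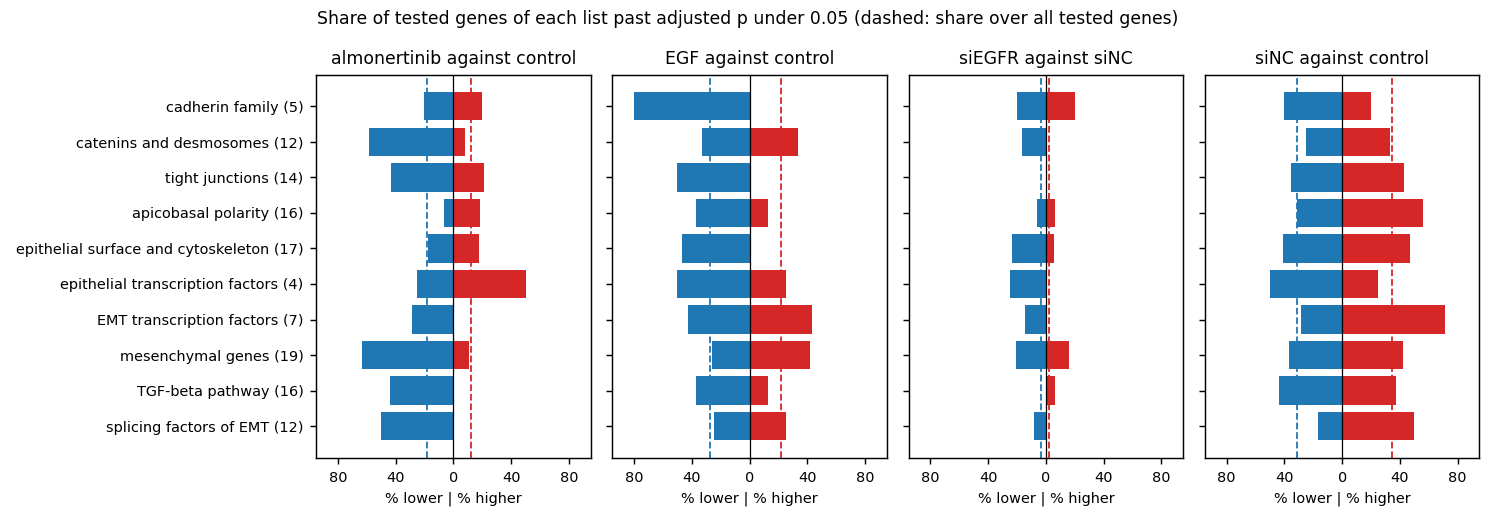
Share of the tested genes of each of 10 lists (number tested in brackets) called lower (left, blue) or higher (right, red) in 4 comparisons, with dashed lines for the shares over all tested genes. With EGF the tight junction and epithelial surface lists have only lower calls, 7 of 14 and 8 of 17.

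Between siNC and control the same lists moved in both directions. The keratin KRT7 rose from 56.4 ± 12.4 to 303 ± 12.2 FPKM (2.43 ± 0.12, adjusted p = 2.41e-09). The epithelial surface list that holds it gave 8 higher and 7 lower of 17, beside 34.4% and 31.6% of all tested genes. Of 16 polarity genes 9 rose and 5 fell. LLGL1 fell from 64.8 ± 7.50 to 21.4 ± 1.35 FPKM (-1.55 ± 0.11), as its paralogue LLGL2 did, and AP1M2, a subunit of an adaptor for basolateral sorting, rose (0.95 ± 0.08). Of 14 tight junction genes 6 rose, among them the tricellulin gene MARVELD2 (0.80 ± 0.09), and 5 fell, among them TJP3 (-1.92 ± 0.10). Of 12 catenins and desmosomal genes 4 rose and 3 fell. Desmocollin 2 (DSC2, 1.03 ± 0.07), PKP4 (0.87 ± 0.06) and NECTIN1 (0.71 ± 0.06) rose, and JUP fell (-1.97 ± 0.13). Of 4 epithelial transcription factors 1 rose, FOXA2 (0.57 ± 0.08), and 2 fell, ELF3 (-1.50 ± 0.06) among them. Of 7 EMT transcription factors 5 rose, HMGA2 (1.44 ± 0.07) and SNAI1 (0.80 ± 0.07) among them, and 2 fell. Of 19 mesenchymal genes 8 rose and 7 fell, with NT5E rising from 13.2 ± 1.42 to 44.2 ± 1.99 FPKM (1.68 ± 0.09). DSC2, AP1M2 and HMGA2 were at 0.246, 0.351 and 0.405 FPKM in control and at 1.55, 1.61 and 2.81 FPKM in siNC. They passed the filter only through groups other than control, so their rises were favoured by it and are given as a description. Such genes are in the counts above.

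The genes whose level followed CDH1 most closely over the 15 libraries, among 6626 genes with a mean of at least 5 FPKM, were AHCYL2 (Pearson r = 0.985), ATP8B2 (0.965), PEG10 (0.960), AHNAK2 (0.960) and DAZAP2 (0.959). For VIM they were TPT1 (0.950), WASHC3 (0.935), TCEAL1 (0.934), ARMCX6 (0.924) and FKBPL (0.914). VIM stood highest in almonertinib 3, and these genes all had their largest SD in the almonertinib group. How far their r rests on that library was not tested. PEG10, a retrotransposon-derived imprinted gene, was at 86.6 ± 8.41 FPKM in control, 57.6 ± 6.19 with almonertinib, 42.8 ± 5.75 with EGF, 424 ± 8.42 in siNC and 402 ± 9.58 in siEGFR. TPT1 was at 29.7 ± 3.93, 34.2 ± 11.7, 30.4 ± 3.58, 22.9 ± 0.969 and 24.7 ± 1.67 FPKM in the same order. These correlations are descriptions, since libraries of a group share their treatment.

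ZEB1 is held in check by the miR-200 family of microRNAs, 2 of which, miR-200c and miR-141, come from a host transcript whose locus the table lists as MIR200CHG (ENSG00000257084, looked up after the values of the identity genes were seen). Poly(A) libraries do not measure mature microRNAs. The mature sequences are printed from RefSeq (GRCh38.p14, chromosome 12, plus strand, chr12:6963742-6963764 and chr12:6964155-6964176) with seed bases 2 to 8 in capitals, because these seeds are what pairs with targets such as ZEB1.
hsa-miR-200c-3p: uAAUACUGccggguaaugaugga
hsa-miR-141-3p: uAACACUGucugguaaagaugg
The host locus had 6, 5 and 7 reads in siNC and 5, 5 and 3 in siEGFR, but 0, 0 and 2 in control, 0, 4 and 0 with almonertinib and 0, 0 and 0 with EGF. The siNC libraries were thus all above the control libraries, as for CDH1 and EPCAM. No reads in the EGF libraries together allow a level of up to 3 reads, or 0.108 FPKM, for counting error only. With so few reads no fold change is given.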

How the data were processed

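The authors deposited 1 table of FPKM values for 61248 loci in 15 libraries. Per the submitters' processing notes, HISAT2, featureCounts and DESeq2 were used with build hg19, and no version or role is given. The FPKM are unrounded, so the reads behind them were recovered from the step per read, and 100% of positive values were whole within 0.01 reads. Symbols came from a list of gene names by Ensembl ID. No positions of the genes are given, as the annotation used here is on another build.

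Values were fitted as log2(FPKM + 1) by limma 3.58.1 (R 4.3.3) using a mean-variance trend, robust moderation and 1 coefficient per group, over genes that reached 1 FPKM in at least 3 libraries. All 15 libraries shared 1 estimate of spread (10 residual degrees of freedom). Tests were two-sided, with Benjamini-Hochberg adjustment over 14999 genes within each of 7 comparisons. The identity genes and lists were chosen with earlier results of these data known. From each list at most 4 genes per comparison, those called with the smallest p, could be named, and some genes that this rule gives are not reported here. The 5 genes most like CDH1 and VIM needed a mean of at least 5 FPKM. The 24 alternatives changed pseudocount, filter, scaling, moderation, replicate block or libraries, or ran limma-voom on recovered reads, and the fit without control 1 and almonertinib 3 was chosen after seeing the data. The fit was tested on simulated data. The rest was done in Python 3.11.15 (pandas 2.3.3, numpy 2.4.6, figures by matplotlib 3.10.9).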

Additional observations from a re-analysis of the deposited data

Results flagged for a closer look

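For 4 of the 8 tested identity genes, a perturbation of the receptor differed from the siEGFR effect by a test of the difference itself, in limma with adjustment over all tested genes. The groups behind each difference do not share libraries. For LLGL2 the EGF effect minus the siEGFR effect was -2.18 ± 0.16 (adjusted p = 4.35e-07) and the almonertinib effect minus the siEGFR effect was 0.78 ± 0.16 (adjusted p = 0.00663). For EPCAM the same differences were 0.44 ± 0.14 (adjusted p = 0.0227) and 0.74 ± 0.14 (adjusted p = 0.00367). For CDH1 the EGF effect differed from the siEGFR effect by -0.47 ± 0.10 (adjusted p = 0.00176), and for SNAI2 by -0.31 ± 0.09 (adjusted p = 0.0142). Of all tested genes, 38.3% passed this test for EGF and 13.7% for almonertinib. The effects start from controls that themselves differ in these genes, with EPCAM at 5.35 times and LLGL2 at 26.9% of control in siNC, and the part of that in the differences was not tested.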

How the results depend on the processing

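CDH1 kept its direction and its call in every alternative of the 6 comparisons in which it was called, including the fits without 1 library. Fits of only the groups compared moved the counts most. With almonertinib the genes called went from 4517 to 857 and the identity genes from 4 to 1, and with siEGFR from 819 to 3080 and from 2 to 5. Leaving out 1 library gave 2853 to 5611 genes with almonertinib, lowest without almonertinib 2. It gave 441 to 525 with siEGFR and 1338 to 3029 for the almonertinib minus siEGFR difference, lowest without siEGFR 3.

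Directions turned only for values that had not passed. With almonertinib these were EPCAM (0.037 under median-ratio scaling and 0.040 in limma-voom) and ESRP1 (-0.011 under TPM scaling and -0.040 without control 1 and almonertinib 3). Against EGF they were VIM (-0.020 under TPM scaling and -0.10 without control 1 and almonertinib 3) and ESRP2 (-0.017 under TPM scaling). For almonertinib minus siEGFR they were SNAI2 (0.0021 with a pseudocount of 0.1, 0.060 under median-ratio scaling and 0.13 in limma-voom) and VIM (0.024 under median-ratio scaling and 0.026 in limma-voom). For EGF minus siEGFR it was ZEB1 (0.057 under median-ratio scaling, 0.0078 in limma-voom and 0.045 without control 1 and almonertinib 3). Without 1 library at a time the ranges were -0.17 to 0.025 for EPCAM, -0.033 to 0.032 for ESRP1 and -0.035 to 0.22 for VIM with almonertinib, and -0.042 to 0.12 for ZEB1 with EGF. Between almonertinib and EGF they were -0.030 to 0.15 for ESRP2 and -0.10 to 0.15 for VIM. They were -0.075 to 0.036 for SNAI2 and -0.25 to 0.0041 for VIM in almonertinib minus siEGFR, and -0.12 to 0.045 for ZEB1 in EGF minus siEGFR. The cause was not tested.

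Same-numbered libraries were not treated as paired in the main fit. Their deviations correlated between -0.17 and 0.60, and 6 of 15 libraries correlated best with their own number. For replicate 2 of control, almonertinib and EGF the correlations lay between 0.53 and 0.60, so a link between some libraries is not settled. With the replicate block the calls with almonertinib went from 4517 to 5614, with EGF from 7396 to 8040 and with siEGFR from 819 to 1036. SNAI2 then passed with almonertinib (adjusted p = 0.016) and siEGFR (adjusted p = 0.0328), and ZEB1 passed in almonertinib minus siEGFR (adjusted p = 0.0184). Scaling moved the share of higher calls with EGF from 44.7% to 57.7% (median ratio), and for the differences from siEGFR from 43.5% to 27.2% (TPM) or 56.3% (median ratio) with almonertinib and from 44.4% to 60.4% with EGF. Depth limits CDH2, ESRP1 and GRHL2, whose counts are low.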
